A study of Mus musculus with 39 samples.

Results

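The genes described here encode the collagens, the laminins and the integrins. They were chosen by symbol alone, as protein-coding mouse genes named as a collagen chain, a laminin alpha, beta or gamma chain, an integrin alpha chain or an integrin beta chain. The rule gave 81 of the 21938 protein-coding genes of the annotation, made up of 44 collagens, 11 laminins and 26 integrins. Each peak was given to the gene whose start site lay closest, protein-coding genes only, and 118 of the 20809 consensus peaks on nuclear chromosomes belonged to one of these genes. Of the single peak lists, 76 of 14097 RGC RBPJ peaks, 17 of 3702 RGC Notch peaks, 27 of 5497 IPC RBPJ peaks and 13 of 2157 IPC Notch peaks did.

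The study mapped the binding of RBPJ and Notch in radial glial cells (RGC) and intermediate progenitor cells (IPC) of the mouse embryonic cortex by Targeted DamID. In this method the protein under study carries a Dam methylase, which marks the GATC sites around its binding places for amplification and sequencing. Plasmids were electroporated into wild-type MF1 embryos at E13.5 and brains were dissected at E14.5, with a Hes5 promoter for expression in RGCs and a Tα1 promoter for expression in IPCs. RBPJ (human RBPJ1) was profiled in 3 samples of each cell type, Notch in 4 samples of each, and Dam-only in 5 samples of RGCs and 4 of IPCs. The RGC Notch samples were 2 of mouse NICD and 2 of mouse NdECD, and the 4 IPC Notch samples were all NICD. The fusion proteins came from plasmids, so the lists show where added protein methylated DNA and not the endogenous protein. The promoter is what defines the cell type here, and peak lists hold no expression with which to check it. The authors deposited 1 peak list for each protein in each cell type, by their methods the peaks found in every pairing of a fusion sample with a Dam-only sample of that cell type, and 1 file of consensus peaks with a k-means cluster for each. The 2 lists of a cell type were called against the same controls and are not independent of each other. The files hold no height, score or value of a single sample, so neither sequencing depth nor replicate spread is known, no test over samples could be made, and all comparisons are descriptions. The range after a share is its Wilson 95% interval, for the counting error over genes or peaks alone. Where a count of 0 is said to allow a share, that limit is 3 counts of the total and not the Wilson bound. A peak near a gene says nothing of the level of that gene.

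Collagens form the fibrils and sheets of the extracellular matrix, laminins assemble with network collagens into basement membranes, and integrins are the alpha-beta heterodimers by which cells hold on to both. In the embryonic cortex the basal endfeet of radial glia are anchored to the basement membrane under the pia, and loss of laminin or integrin function there detaches endfeet and disturbs cortical layering. Radial glia carry laminin receptors with integrin alpha 6 and beta 1 chains, whereas many fibrillar collagens are made mainly by meningeal and vascular cells.

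RBPJ binds DNA at sites with the core TTCCCA, often followed by C. The sequences below are shown because they come from the peaks with the broadest calls or the most TTCCCAC words at these genes. Each is from the GRCm38 genome, read 5′ to 3′ on the plus strand, and reaches 60 bases to each side of the middle of the TTCCCAC word (or its reverse complement GTGGGAA) nearest to the middle of the peak, which is in capitals. The first 2 lie in the only peaks called in 3 lists, the Col4a2 window lies in a peak called for both proteins in RGCs, and that window and the last 3 lie in 4 of the 5 peaks with 3 TTCCCAC words, the most at any of these genes. The peaks at Itga3, Itga6 and Itgb5 called for both proteins in RGCs held no TTCCCAC word, so no window is shown for them.
Col4a4, chr1:82537080-82537200, + strand: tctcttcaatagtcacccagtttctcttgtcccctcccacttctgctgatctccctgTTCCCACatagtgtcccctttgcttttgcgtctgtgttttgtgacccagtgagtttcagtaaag
Itgb1, chr8:128528787-128528907, + strand: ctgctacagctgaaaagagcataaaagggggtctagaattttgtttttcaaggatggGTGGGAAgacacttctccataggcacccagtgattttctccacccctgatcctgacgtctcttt
Col4a2, chr8:11362646-11362766, + strand: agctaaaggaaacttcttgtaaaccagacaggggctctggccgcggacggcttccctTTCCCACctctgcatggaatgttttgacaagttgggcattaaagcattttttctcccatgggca
Col4a1, chr8:11279796-11279916, + strand: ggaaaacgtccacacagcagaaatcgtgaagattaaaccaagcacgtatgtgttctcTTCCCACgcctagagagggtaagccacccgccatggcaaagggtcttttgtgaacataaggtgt
Col4a1, chr8:11187852-11187972, + strand: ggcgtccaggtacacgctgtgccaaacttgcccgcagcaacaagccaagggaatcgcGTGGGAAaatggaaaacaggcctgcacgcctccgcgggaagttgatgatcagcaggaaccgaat
Lama1, chr17:67698285-67698405, + strand: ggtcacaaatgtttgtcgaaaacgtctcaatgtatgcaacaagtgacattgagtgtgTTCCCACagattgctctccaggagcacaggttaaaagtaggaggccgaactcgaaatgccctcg
A TTCCCAC word was present in 38 of the 118 peaks (32.2%, 24.4 to 41.1) and in 41.2% of all consensus peaks, and TTCCCA in 92 (78.0%, 69.7 to 84.5) against 82.9%. Counted on both strands with overlaps allowed, the peaks of these genes held 1.14 TTCCCA words per kb against 1.17 in all consensus peaks, and 0.212 TTCCCAC words per kb against 0.27. TTCCCA is contained in TTCCCAC, so the counts are not separate. A match is a match of letters and was not tested as a binding site.

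Of the 81 genes, 47 had at least 1 consensus peak (58.0%, 47.2 to 68.2), and the share over all protein-coding genes, 39.7%, lay below this interval. By list, 41 genes had an RGC RBPJ peak (50.6%, 40.0 to 61.2, against 31.7% of all genes), 16 an RGC Notch peak (19.8%, 12.5 to 29.7, against 11.7%), 19 an IPC RBPJ peak (23.5%, 15.6 to 33.8, against 16.4%) and 9 an IPC Notch peak (11.1%, 5.96 to 19.8, against 6.97%). The share for RGC RBPJ stood above all genes beyond counting error, here and under all 7 other ways of assigning peaks that were tried. The RGC Notch share did so here but in only 4 of those 7, with 13 genes (16.0%, 9.63 to 25.5, against 11.8%) when start sites of coding transcripts alone were used. The IPC RBPJ interval included the share of all genes here and in 4 of the 7, and lay above it in the other 3, with 20 genes (24.7%, 16.6 to 35.1, against 11.3%) when a peak had to overlap the gene body. The IPC Notch interval included it in each. No difference between the cell types was tested, and none is read from these counts. The intervals of the 3 families overlapped, with a peak at 28 of 44 collagens (63.6%, 48.9 to 76.2), 6 of 11 laminins (54.5%, 28.0 to 78.7) and 13 of 26 integrins (50.0%, 32.1 to 67.9). These genes are long, and the size of a gene's surroundings moved with its peaks. The territory of a gene, meaning the sequence nearer to its start sites than to those of any other protein-coding gene, had a median of 133.2 kb here and 45.07 kb over all genes. Among genes with a territory of at least 100 kb, a split chosen after the values were seen, 34 of 47 of these genes had a peak (72.3%, 58.2 to 83.1) against 71.9% of all genes. Among those under 100 kb it was 13 of 34 (38.2%, 23.9 to 55.0) against 27.8%. Per Mb of territory there were 8.24 consensus peaks at these genes and 7.63 over all genes. By list there were 5.31 against 5.17 RGC RBPJ peaks per Mb and 1.19 against 1.36 RGC Notch peaks. For IPC RBPJ it was 1.88 against 2.02 and for IPC Notch 0.907 against 0.791, and these differences were not tested. Within each size class the interval included the share over all genes, and the part of territory in the higher share was not tested.

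**Figure D1:**
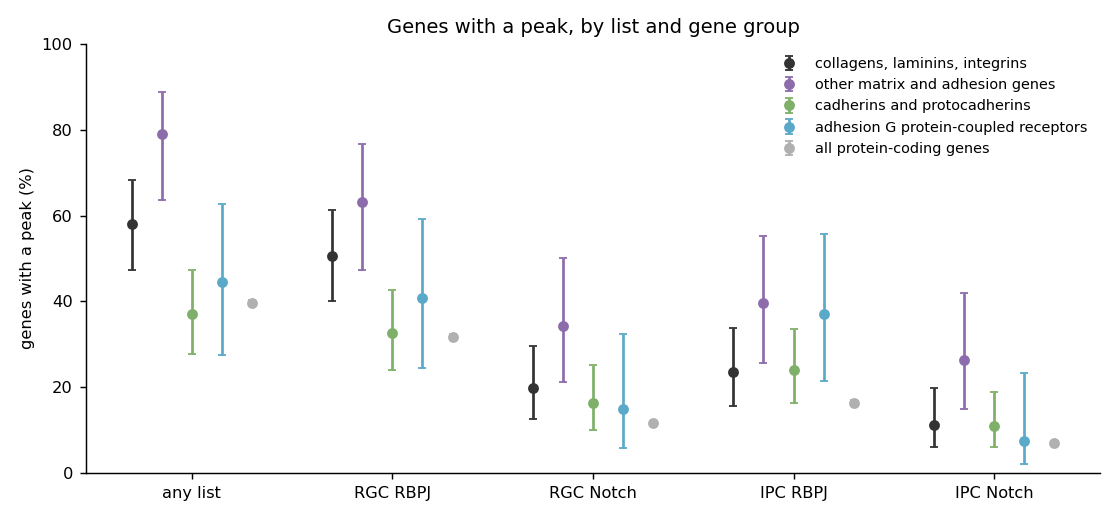
Share of genes (%) with a peak in any list and in each of the 4 lists, with Wilson 95% intervals as bars, for the 81 collagens, laminins and integrins, the 38 other matrix and adhesion genes, 92 cadherins and protocadherins, 27 adhesion G protein-coupled receptors and all 21938 protein-coding genes. The collagens, laminins and integrins (58.0% in any list) lie between the other matrix genes (78.9%) and all genes (39.7%).

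Other gene groups were described in the same way. A list of 38 other matrix and adhesion genes (fibronectin, tenascins, nidogens, proteoglycans, focal adhesion proteins and collagen-modifying enzymes) had a consensus peak at 30 genes (78.9%, 63.7 to 88.9), with 11.9 peaks per Mb of territory. That density was above the 8.24 per Mb of the collagens, laminins and integrins, and the same order was seen in each list, with 6.82 against 5.31 RGC RBPJ peaks per Mb, 2.47 against 1.19 RGC Notch, 4.21 against 1.88 IPC RBPJ and 1.89 against 0.907 IPC Notch. These differences were not tested. Cadherins and protocadherins had a peak at 34 of 92 genes (37.0%, 27.8 to 47.2) and 3.57 per Mb, and adhesion G protein-coupled receptors at 12 of 27 (44.4%, 27.6 to 62.7) and 6.48 per Mb. Collagens and several integrins are also made outside the neural lineage, so markers of such cells were counted too. Of 8 endothelial and mural genes 4 had a consensus peak (50.0%, 21.5 to 78.5), of 6 meningeal fibroblast genes 4 (66.7%, 30.0 to 90.3), and of 6 microglial genes 2 (33.3%, 9.68 to 70.0). Each of these intervals included the 39.7% of all genes. A peak is no measure of expression, and whether cells of these kinds contributed to any peak was not tested.

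The peaks were spread unevenly over the genes with a peak, here as over all genes. Among the 47, 17 had a single consensus peak, and 10 genes with at least 4 peaks held 52 of the 118. The median was 2 (upper quartile 3, highest 7), against 1 (upper quartile 3, highest 47) over all 8720 genes with a peak. Col25a1, Col5a1 and Lama2 had 7 each, Col4a1 had 6 and Itgb5 had 5. Read by list, 16 genes had RGC RBPJ peaks and no others, among them Col1a2, Col8a1, Col11a2, Col13a1, Col15a1, Col22a1, Col5a2, Col4a3, Itga5 and Lama1. Another 4 (Col1a1, Itga11, Itgav and Lamc3) had IPC RBPJ peaks and no others, and Col24a1 had an RGC Notch peak alone. The remaining 26 had peaks of more than 1 list, usually in separate places, as at Col9a1 and Col14a1, fibril-associated collagens, and at Col16a1, Col19a1 and Col5a3. Such patterns by gene were not counted over all genes, so none is read as particular to these genes. Of all consensus peaks 82.9% were called in a single list, against 89.0% here. Across the 81 genes Spearman's rho between territory and number of peaks was 0.5, and over all 21938 genes it was also 0.5. The genes of this description share neighbourhoods (Col4a1 with Col4a2, and Col4a3 with Col4a4, lie head to head), so the points are not independent and no p is given.

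**Figure D2:**
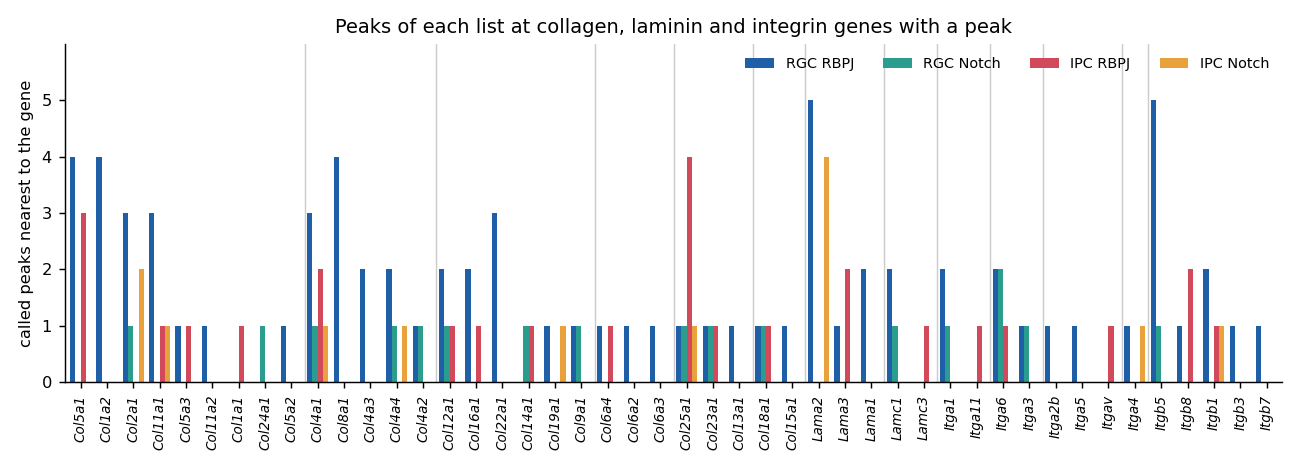
Number of called peaks of each of the 4 lists nearest to each of 46 of the 47 genes with a peak, grouped by role from fibrillar collagens on the left to integrin beta chains on the right, with grey lines between groups. RGC RBPJ peaks make up most of the bars, Lama2 has 4 IPC Notch peaks and Col25a1 has 4 IPC RBPJ peaks.

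The network collagens include the chains of type IV collagen, the scaffold of basement membranes. Col4a1 and Col4a2 encode the chains found in most basement membranes, the cortical pial one included. Col4a1 (ENSMUSG00000031502, chr8:11198423-11312826, minus strand) had 6 peaks and was 1 of 2 genes here, with Col25a1, that had a peak in every list. Genes with a peak in every list were not counted over all genes. RBPJ was called at it in RGCs in 3 peaks, at 52.0, 115.0 and 126.0 kb from the 5′ end of the gene, the last 2 beyond the 3′ end of the gene. IPC RBPJ was called at 90.4 kb, in an intron, and also in the peak at 126.0 kb. The RGC Notch peak (chr8:11278986-11280596) lay 33.0 kb into the gene over the start of an internal coding transcript. It was called in no other list and held 5 TTCCCA words in 1611 bp, or 3.10 per kb, of which 3 were TTCCCAC. The IPC Notch peak, of 829 bp at 85.6 kb, held no TTCCCA word. No peak of Col4a1 was called for both proteins of a cell type. At Col4a2 the only peak (chr8:11361350-11364856), 50.3 kb into the gene in an intron, was called for RBPJ over 3507 bp and for Notch over 2308 bp in RGCs, and in neither IPC list.

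Col4a4 and Col4a3 encode chains best known from the kidney basement membrane. At Col4a4 (ENSMUSG00000067158, chr1:82448423-82586849, minus strand) an intronic peak 50.7 kb into the gene (chr1:82534727-82537602, cluster 4) was called in RGC RBPJ, RGC Notch and IPC Notch, and not in IPC RBPJ. RGC RBPJ covered 2352 bp of it, RGC Notch 2499 bp and IPC Notch 1242 bp. Col4a3 had 2 intronic peaks, both of RGC RBPJ. Col4a5 and Col4a6, a head-to-head pair on the X chromosome, had no peak in territories of 217.0 and 297.0 kb. Over all genes there were 7.63 peaks per Mb, and 8.28 on autosomes only. The X and Y chromosomes together thus held fewer peaks per Mb than the autosomes. No density was computed for the X chromosome alone, and its part in the lack of peaks at Col4a5 and Col4a6 was not tested. Col8a1, a short-chain network collagen, had 4 RGC RBPJ peaks and none of any other list, 1 of them over its 5′ end and the farthest 300.0 kb before the nearest start site.

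The fibrillar collagens, which build the banded fibrils of connective tissue, had peaks at 9 of 11 genes (81.8%, 52.3 to 94.9, against 39.7% of all genes), 24 in all. Per Mb of territory they had 9.34 peaks against 7.63 over all genes, and the class was not tested against others. Col5a1, a minor chain that regulates fibril width, had 4 RGC RBPJ and 3 IPC RBPJ peaks and no Notch peak in either cell type. Col1a2, a chain of type I collagen, had 4 RGC RBPJ peaks, of which 3 lay 16.1 to 107.0 kb before the nearest start site and 1 downstream of the gene, and none was inside the gene. Col1a1, the other chain of type I collagen, had a single IPC RBPJ peak, of 1583 bp. Its midpoint lay in an intron and its nearer edge 251 bp from an annotated start site. The 2 genes for type I collagen had no list in common, and over all genes 31.7% had an RGC RBPJ peak and 16.4% an IPC RBPJ peak. Col2a1, the main collagen of cartilage, had 4 peaks within a territory of only 49.5 kb. The peak over its 5′ end (chr15:98000067-98004856) was called in RGC RBPJ over all of its 4790 bp and in IPC Notch over 2086 bp, and a peak 8.36 kb before the 5′ end was called for Notch in both cell types and for RBPJ in neither. Col11a1, a minor cartilage fibril chain, had a peak over its 5′ end called for RBPJ in both cell types (chr3:114028816-114031213), with 2397 bp called in RGCs and 1076 bp in IPCs. A further peak, with the midpoint 124.0 kb before the gene, was called in RGC RBPJ and IPC Notch. Col3a1, whose product is a ligand of the receptor GPR56 at the pial surface, had no peak in a territory of 366.0 kb.

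Of the genes with a peak over a start site called in at least 2 lists, the RefSeq promoter table (GRCm38.p6) gave a stretch without annotated UTR under the peak for Col11a1 alone. The 250 bases before its start site are printed below on the coding strand, all in lower case because neither TTCCCA nor its reverse complement is in them.
Col11a1 promoter, chr3:114030290-114030539, + strand: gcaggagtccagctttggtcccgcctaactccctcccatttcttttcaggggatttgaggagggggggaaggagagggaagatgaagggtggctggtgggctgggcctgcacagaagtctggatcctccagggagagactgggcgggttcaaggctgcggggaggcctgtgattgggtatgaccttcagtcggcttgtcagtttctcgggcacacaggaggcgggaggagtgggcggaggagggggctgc
Of all 32851 promoters of 300 bases in that source, 25.6% held TTCCCA and 6.38% held TTCCCAC. Of the 64 promoters listed for 58 of the 81 genes, 17 (26.6%) held TTCCCA and 2 (3.12%) held TTCCCAC.

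Among the other collagens, Col25a1 stood out by its IPC calls. Its product is a transmembrane collagen made by neurons. Of its 7 peaks 4 were called in IPC RBPJ, 1 in IPC Notch, 1 in RGC RBPJ and 1 in RGC Notch, each in that list alone, and 6 lay in introns between 153.0 and 362.0 kb into the gene. Col23a1, another transmembrane collagen, had 1 peak each of RGC RBPJ, RGC Notch and IPC RBPJ. Col18a1, the basement membrane collagen from which endostatin is cut, had an RGC Notch peak over its 5′ end (chr10:77164896-77168153) in which neither RBPJ list had a call. Its RGC RBPJ peak lay 44.8 kb before the gene and its IPC RBPJ peak 47.1 kb inside it. Col12a1, a collagen attached to fibril surfaces, had 4 peaks, each called in 1 list, the 2 farthest at 392.0 and 458.0 kb from its nearest start site. Col6a4 had 1 RGC RBPJ and 1 IPC RBPJ peak, both in introns, whereas Col6a1 had none and Col6a2 and Col6a3 had 1 each, all of RGC RBPJ.

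Among the laminins, Lamc1, Lamc3 and 3 of 5 alpha chain genes (Wilson interval 23.1 to 88.2%) had a peak, and 0 of the 3 beta chain genes (Lamb1, Lamb2 and Lamb3) did (0.0 to 56.1%). With so few genes both intervals included the 39.7% of all genes, and the chains were not tested against each other. The territories of the beta chain genes were 79.5, 19.1 and 85.6 kb, a size class in which 27.8% of all genes had a peak. Lamc1, the gamma chain of most laminins, had 2 RGC RBPJ peaks and 1 RGC Notch peak, none of them shared. Lama1, a chain of the laminin of early basement membranes, had an RGC RBPJ peak over its 5′ end (chr17:67695765-67699312) with 6 TTCCCA words, 3 of them TTCCCAC, and another 67.0 kb inside it. Lama2, the alpha chain of muscle and also of brain basement membranes, had the largest territory of all 81 genes, 921.0 kb. RGC RBPJ was called in 5 of its 7 peaks and IPC Notch in 4, and the 2 lists shared 2 intronic peaks far inside the gene, at 565.0 and 618.0 kb from the 5′ end. Neither RGC Notch nor IPC RBPJ had a peak at Lama2. It accounted for 4 of the 13 IPC Notch peaks of all the genes described. Lama3, an alpha chain of epithelial laminin, had 2 IPC RBPJ peaks and 1 RGC RBPJ peak, all in introns. Lamc3 had a single IPC RBPJ peak.

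Among integrin alpha chains, 2 of the 3 laminin receptors had Notch calls in RGCs (66.7%, 20.8 to 93.9, against 11.7% of all genes). This share rests on 3 genes and was not tested. Itga6 (ENSMUSG00000027111, chr2:71745616-71858416, plus strand), the laminin-binding chain prominent on radial glia, had 4 peaks. The peak over its 5′ end (chr2:71741333-71747634) was the widest of the 118 at 6302 bp, and RBPJ was called over 5587 bp and Notch over 4268 bp of it in RGCs. The 1 annotated transcript start under this peak was not that of a coding transcript. Distances inside the gene are counted from the same 5′ end. A second RGC Notch peak lay 5.24 kb inside the gene with no RBPJ call, RGC RBPJ had a further peak at 16.3 kb, and IPC RBPJ had one at 63.6 kb that held no GATC site. Itga3, another laminin-binding chain, had 1 peak, over its 5′ end (chr11:95076474-95078050), called for both proteins in RGCs over 1556 and 1575 bp of 1577 and in neither IPC list. The third laminin-binding chain, Itga7, had none. Of the collagen-binding chains, Itga1 had 3 peaks and Itga11 had 1, whereas Itga2 and Itga10 had none. The peak over the Itga1 start site was as near to a neighbouring annotated gene, Gm49395, and the other 2 lay 439.0 and 529.0 kb before it. Of the chains that bind arginine-glycine-aspartate, Itga2b, the platelet fibrinogen receptor chain, had 1 RGC RBPJ peak over internal start sites, Itga5 1 RGC RBPJ peak over its 5′ end and Itgav 1 IPC RBPJ peak, while Itga8 had none in a territory of 370.0 kb. Itga4 had an RGC RBPJ and an IPC Notch peak, 61.5 and 102.0 kb before the gene. Its body was touched by 3 more peaks, called in IPC RBPJ or RGC RBPJ, that had Cerkl as the nearest gene. All 5 leukocyte alpha chain genes (Itgad, Itgae, Itgal, Itgam and Itgax) lacked a peak, as did Itgb2, the partner of these chains other than Itgae, and the 6 territories were 27.9 to 56.1 kb. The interval for the 5 alpha chain genes, 0.0 to 43.4%, included the 39.7% of all genes. Of all genes with territories under 100 kb, 27.8% had a peak.

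Integrin beta chains had peaks at 5 of 8 genes (62.5%, 30.6 to 86.3, against 39.7% of all genes). Itgb1 (ENSMUSG00000025809, chr8:128685654-128733200, plus strand), the common partner of the laminin and collagen receptors, had an RGC RBPJ peak over its 5′ end. It also had an intergenic peak with the nearer edge 155.0 kb before the nearest start site (chr8:128527427-128530586, cluster 7), which was called in RGC RBPJ over 975 bp, in IPC RBPJ over all of its 3160 bp and in IPC Notch over 2190 bp. This was the only peak of the 118 called for both proteins in IPCs (0.847%, 0.15 to 4.64). Calls in a single list made up 89.0% of the 118 and 82.9% of all consensus peaks. The far Itgb1 peak is farther from its gene than most of the peaks described, and its target was not tested. Itgb5, a partner of the alpha v chain, had 5 intronic RGC RBPJ peaks, more than any other integrin gene, and the one 53.9 kb inside the gene (chr16:33882045-33885059) was also called for Notch in RGCs over its whole 3015 bp. No IPC list had a peak at Itgb5. Itgb8, another partner of alpha v, present on neural progenitors, had at its 5′ end an IPC RBPJ peak (chr12:119237209-119238513) and an RGC RBPJ peak (chr12:119238682-119241118) 168 bp apart. The RGC peak covered the annotated 5′ end and the IPC peak lay just inside the gene. A further IPC RBPJ peak lay 70.0 kb inside it. Itgb3, known from platelets, and Itgb7, the lymphocyte chain that pairs with the product of Itgae, had 1 RGC RBPJ peak each.

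**Figure D3:**
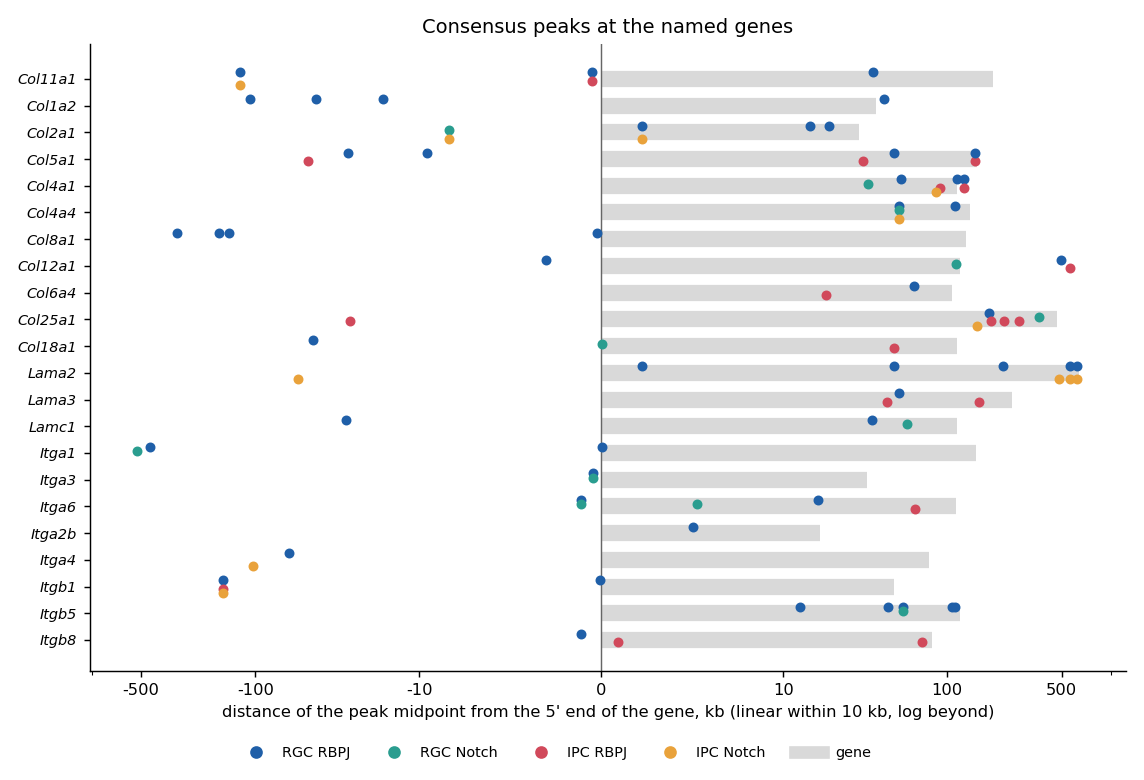
Distance of each consensus peak's midpoint from the 5′ end of its gene in kb (negative values before the gene, linear within 10 kb and logarithmic beyond), for the 22 genes named by rule, with 1 point per list called in the peak and a grey bar for the gene. A peak with an RGC call covers the 5′ end of Col2a1, Col8a1, Col11a1, Col18a1, Itga1, Itga3, Itga6, Itgb1 and Itgb8. RGC calls more than 100 kb before the gene lie at Col1a2, Col8a1, Col11a1, Itga1 and Itgb1. The IPC RBPJ points lie mostly inside the genes, as do many of the RGC points.

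The position of the peaks was described over all genes together. Of the 118 peaks, 14 covered the 5′ end of their own gene (11.9%, 7.2 to 18.9, against 11.5% of all consensus peaks), 27 lay before it, 71 elsewhere inside the gene and 6 beyond its 3′ end. With internal start sites of annotated transcripts included, 21 peaks at 19 genes covered a start site (17.8%, 11.9 to 25.7, against 16.6%). These 21 included 19 of the 76 peaks called in RGC RBPJ (25.0%, 16.6 to 35.8, against 17.8% of all such peaks) and 5 of the 17 called in RGC Notch (29.4%, 13.3 to 53.1, against 21.7%). In IPCs they included 1 of 27 called for RBPJ (3.7%, 0.657 to 18.3, against 16.7%) and 1 of 13 called for Notch (7.69%, 1.37 to 33.3, against 14.9%). Midpoints in introns were more common than over all peaks, at 61.9% (52.9 to 70.1) against 47.3%, and intergenic midpoints less common, at 27.1% (19.9 to 35.8) against 38.7%. The median gene length was 82.52 kb here and 17.43 kb over all genes, and its part in this difference was not tested. The median distance to the nearest start site was 14.53 kb against 21.05 kb, and the median width 1760 bp against 1890 bp.

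By list, the consensus peaks of these genes were divided much as all consensus peaks were. RGC RBPJ was called in 76 (64.4%, 55.4 to 72.5, against 67.6%), RGC Notch in 17 (14.4%, 9.19 to 21.9, against 17.7%), IPC RBPJ in 27 (22.9%, 16.2 to 31.2, against 26.2%) and IPC Notch in 13 (11.0%, 6.55 to 17.9, against 10.1%). By cell type, 79 were called in RGCs only (66.9%, 58.0 to 74.8, against 66.1%), 30 in IPCs only (25.4%, 18.4 to 34.0, against 22.4%) and 9 in both (7.63%, 4.06 to 13.9, against 11.5%). A single list accounted for 105 peaks (89.0%, 82.1 to 93.4, against 82.9%), 2 lists for 11 (9.32%, 5.29 to 15.9, against 13.2%), 3 lists for 2 (1.69%, 0.466 to 5.97, against 3.2%) and all 4 lists for none, which allows a share of up to 2.54% (against 0.678%). All of these intervals included the share over all peaks.

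The k-means clusters group the peaks by the binding intensity of the 4 profiles, and here they are described by the calls they hold. Cluster 5 held the largest number of the peaks of these genes, 33 (28.0%, 20.7 to 36.7, against 22.5% of all consensus peaks), of which 32 were called in RGC RBPJ. Cluster 3 held 23 (19.5%, 13.4 to 27.6, against 16.3%), of which 22 were called in IPC RBPJ. Cluster 8, in which all 20 of the peaks (16.9%, 11.2 to 24.7, against 14.4%) were RGC RBPJ calls, followed. Cluster 4 held 14 (11.9%, 7.2 to 18.9, against 9.79%), cluster 1 held 10 (8.47%, 4.67 to 14.9, against 10.5%), of which 8 were called in RGC Notch, and cluster 2 held 7 (5.93%, 2.9 to 11.7, against 4.76%). Cluster 7 held 5 (4.24%, 1.82 to 9.54, against 11.0%), with the share over all peaks above the interval, as it was in 6 of 7 other ways of assigning peaks. The exception was the use of the start sites of all annotated genes, with 5.19% (2.04 to 12.6). Cluster 6 held 6 peaks (5.08%, 2.35 to 10.7, against 10.8%), with the share over all peaks just above the interval, and in 4 of those 7 the interval included it, as at 6.54% (3.2 to 12.9) with 1 start site per gene. The 5 cluster 7 peaks included those at Col2a1 (5′ end), Col22a1, Itgb1 (far upstream) and Itgb8 (the IPC RBPJ peak). No cluster was tested against another, and 8 were looked at.

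**Figure D4:**
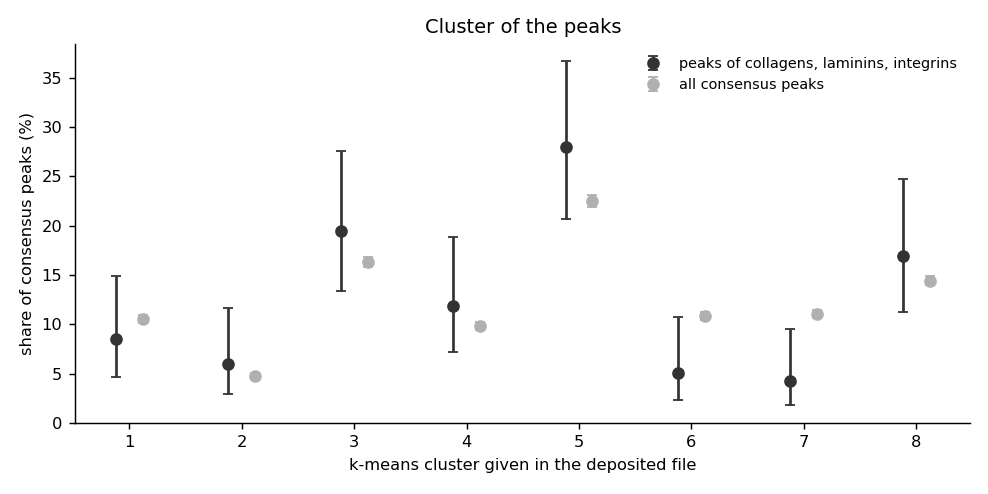
Share of consensus peaks (%) in each of the 8 deposited k-means clusters, for the 118 peaks of collagens, laminins and integrins and for all 20809 nuclear consensus peaks, with Wilson 95% intervals as bars. The share in cluster 7 (4.24%) lies below that of all peaks (11.0%) with its whole interval, and the interval of cluster 6 (5.08%, up to 10.7) ends close to the share of all peaks (10.8%).

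Dam methylates GATC, so a peak in a Targeted DamID profile depends on the GATC sites in and around it. At these genes the IPC RBPJ peaks were mostly without such a site. Of the 27 consensus peaks called in IPC RBPJ, 20 contained no GATC (74.1%, 55.3 to 86.8), against 32.7% of all consensus peaks called in this list. In the other lists such peaks were rare, with 0 of 76 in RGC RBPJ (up to 3.95% allowed, against 1.22% of all), 0 of 17 in RGC Notch (up to 17.6% allowed, against 0.542%) and 1 of 13 in IPC Notch (7.69%, 1.37 to 33.3, against 3.14%). Among peaks called in IPC RBPJ alone the share was 20 of 24 (83.3%, 64.1 to 93.3), against 46.6% of all such peaks. It was 9 of 20 (45.0%, 25.8 to 65.8) at the other matrix and adhesion genes, 14 of 39 (35.9%, 22.7 to 51.6) at cadherins and protocadherins, and 7 of 18 (38.9%, 20.3 to 61.4) at adhesion G protein-coupled receptors. These differences between gene groups were not tested, and counting error alone is in the intervals. With the midpoint in an intron it was 17 of 20 (85.0%, 64.0 to 94.8) against 32.7% of all intronic IPC RBPJ peaks, and away from start sites 20 of 26 (76.9%, 57.9 to 89.0) against 36.0%. Over whole gene bodies there were 2.36 GATC per kb in these genes and 2.39 in all protein-coding genes, an average that does not give the density around the peaks. The median width was 1483 bp for the peaks called in IPC RBPJ alone and 1389 bp for all such peaks. The part of site density or peak width in the share without GATC was not tested.

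**Figure D5:**
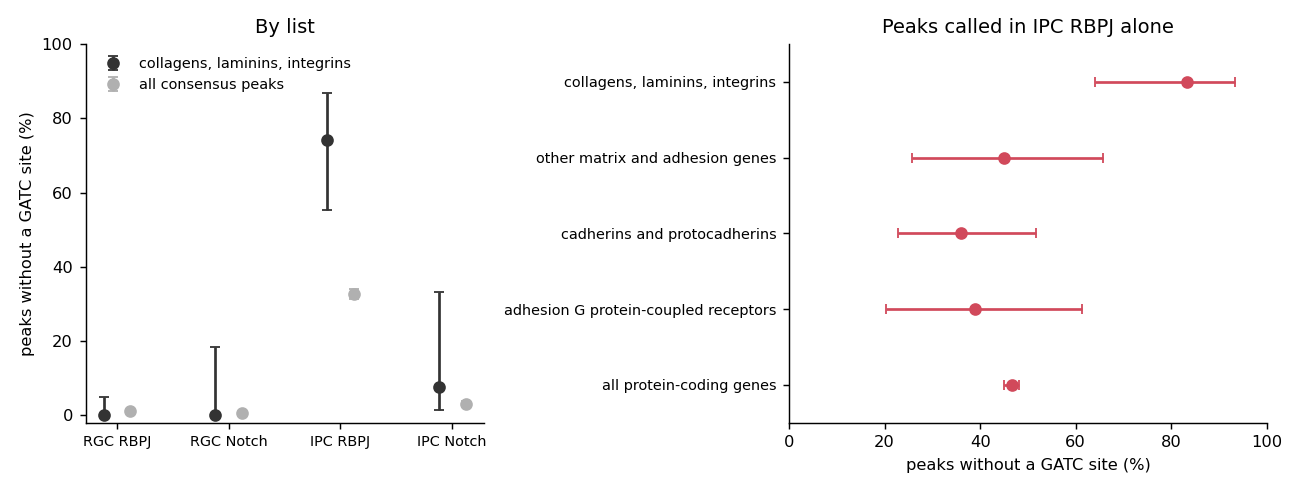
Share of consensus peaks (%) that contain no GATC site, with Wilson 95% intervals, by the list they were called in (left, peaks of collagens, laminins and integrins in black and all consensus peaks in grey) and for peaks called in IPC RBPJ alone by gene group (right). The IPC RBPJ peaks of collagens, laminins and integrins lie at 74.1% and 83.3%, above the other groups shown.

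The 21 peaks without GATC, 20 of IPC RBPJ and the IPC Notch peak before Col19a1, lay at 17 genes. Each sat within a single stretch between neighbouring GATC sites, of 1063 to 3542 bp with a median of 1891 bp, and over all 2024 consensus peaks without the site for which both neighbours were found the median was 2017 bp. Col25a1 held 3 of them, Itgb8 and Lama3 held 2 each, and Col4a1, Col5a1, Itga6, Col1a1, Col18a1 and Lamc3 were among the genes with 1. The Itga6 peak lay in the longest stretch, 3542 bp, and the Col12a1 peak in the shortest, 1063 bp. The IPC RBPJ peaks that did hold a GATC site included the 3 that were also called in RGC RBPJ, over the start site of Col11a1, beyond the end of Col4a1 and far before Itgb1.

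The IPC RBPJ peaks with no RGC call in some cases lay next to an RGC RBPJ peak without touching it. Of the 24 such peaks at these genes, 4 were within 2 kb of an RGC RBPJ peak (16.7%, 6.68 to 35.9), against 3.85% of the 3927 such consensus peaks in all, a limit chosen after the values were seen. These were at Col5a1, where 7 bp separated the 2 peaks (chr2:28032109-28033808 and chr2:28033816-28034609), at Itgb8 with 168 bp, at Col23a1 with 1457 bp and at Col25a1 with 1629 bp. In the count of shared peaks each such pair stands as 1 peak of each cell type. The median gap over the 24 was 41.2 kb, against 44.6 kb over all.

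The 34 genes without a consensus peak were Col3a1, Col4a5, Col4a6, Col6a1, Col6a5, Col6a6, Col7a1, Col8a2, Col9a2, Col9a3, Col10a1, Col17a1, Col20a1, Col26a1, Col27a1, Col28a1, Itga2, Itga7, Itga8, Itga9, Itga10, Itgad, Itgae, Itgal, Itgam, Itgax, Itgb2, Itgb4, Itgb6, Lama4, Lama5, Lamb1, Lamb2 and Lamb3. Their territories had a median of 67.34 kb, against 177.7 kb for the 47 with a peak, and their lengths a median of 52.67 kb against 112.8 kb. The same held over all protein-coding genes, with territories of 31.02 kb without and 97.18 kb with a peak. The genes without a peak in the largest territories were Itga8, Col3a1, Itga9, Col4a6, Col28a1, Lama4 and Col4a5, with territories of 217.0 to 370.0 kb. A further limit of the nearest-gene rule showed at Col8a2, Itga2 and Itgb6, whose bodies were touched by consensus peaks nearer to the start site of a neighbour. Such peaks also touched Col22a1, Col25a1, Itga1 and Itga4, which had other peaks of their own, and there were 10 in all. The 2 such peaks in Itgb6 were each called in RGC RBPJ and IPC Notch and had Pla2r1 as the nearest gene. Without a list of values below the calling threshold, a gene without a peak cannot be told apart from one with binding too weak to be called in every pair of samples.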

How the data were processed

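Targeted DamID reads were trimmed and mapped to mm10 by the authors, who ran Macs2 in broad mode on each combination of a fusion sample with a Dam-only sample, applied an FDR threshold and retained what every combination shared. They deposited 4 peak lists, each over all samples of a protein and cell type, and 1 file of 20811 consensus peaks with k-means clusters. The deposited values are peak positions in bp, there are 0 columns of single samples, and depth per sample is not given in the sources used here. The series has 39 samples, of which 14 lie behind the 4 lists. The full-length Notch, neuronal and ubiquitous Dam-only samples were not used here. Positions were read on GRCm38 with GENCODE M21, and 2 mitochondrial consensus peaks were left out. Each peak was assigned to the nearest start site of any transcript of a protein-coding gene, measured from its edge, with ties kept. A list counted as called in a consensus peak from 1 bp of overlap. Genomic features used the midpoint, with 5 kb upstream of start sites. Words and GATC sites were counted on the GRCm38 sequence. Promoters were from RefSeq (GRCm38.p6). All 64 promoters of these genes matched the genome. Analyses ran in Python (3.11.15; pysam 0.24.0, scipy 1.17.1, pandas 2.3.3, numpy 2.4.6), with figures from matplotlib (3.10.9). Assignment, territories and word counts were tested on simulated data.

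The genes, lists and rules were chosen with earlier results of these data known. Genes were named if they had a peak called in at least 3 lists, were among the 3 with most peaks in a list, had a start site peak called in at least 2 lists or had the most peaks of their role class. The values of 1 gene with a peak are not reported here, though it is in all counts. Other genes with values, and the GATC and neighbouring-peak descriptions, were chosen after the values were seen.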

Additional observations from a re-analysis of the deposited data

How the results depend on the processing

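Of 114 values recomputed under the alternatives, 107 stayed within 1.5 times the count reported or within its 95% interval, and 7 moved. The start sites of all annotated genes, in place of those of protein-coding genes, left 77 consensus peaks at these genes in place of 118 and 4 genes with an IPC Notch peak in place of 9, and raised the share of IPC RBPJ peaks without GATC to 88.2%. The number of genes with an IPC Notch peak was 5 within 100 kb and also 5 with peaks of at least 1000 bp. That width left 6.42 peaks per Mb of territory against 6.29 over all genes. With TTCCCAC in place of TTCCCA, the word density relative to all peaks was 0.787 (0.586 to 1.04) in place of 0.978. More start sites compete or fewer peaks remain by construction in the first 3 settings, and for the GATC share and the words the cause was not tested. The shares of all genes and all peaks under the same alternatives, added after the data were seen, stand beside the counts they bear on, and the other clusters kept the share of all peaks in their intervals except cluster 3 in the setting of overlap with the gene body (26.3%, 18.5 to 36.0). Over all 7 alternatives of the assignment the genes with a consensus peak numbered 44 to 48, and over the other 6 the share of IPC RBPJ peaks without GATC was 68.2 to 75.0%. The alternatives for that share were added after the data were seen. No replicate could be left out and no paired analysis was possible because the files hold no peaks of single samples. Depth and peak height cannot be read from them, so the strength of binding at any gene is unknown.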
